A study of Mus musculus with 2 samples.

Results

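The 8 genes Spp1, Gpnmb, Trem2, Fabp5, Lgals3, Cd63, Cd9 and Fn1, of 24785 genes listed in either of 2 lung single-cell libraries, are described here as genes of scar-associated macrophages. They were chosen by symbol with measured values of these same libraries known, namely the levels in macrophages of each library and their ratio after bleomycin. These levels and ratios are therefore a description, without a test. Bleomycin (BLM) in the airway causes injury that scars the lung, and the study used the libraries to survey immune cells of injured and naive lungs. Both libraries came from C57BL/6N mice without an engineered allele. Each was made from CD45+ lung cells of 3 mice pooled, with no record of which cell came from which mouse. The BLM lungs were taken on day 15 after 50 µg bleomycin in 50 µl into the trachea, and the naive lungs had no treatment. The study's methods give mice of 10 to 16 weeks, matched in age and sex.

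The lung holds alveolar macrophages in the airspace and further macrophages in the tissue, many of which descend from blood monocytes. Scar-associated macrophages are a state described in fibrotic lung and liver, known for secreting osteopontin and for genes of lipid uptake, lysosomes and matrix. The genes are taken here by role, as secreted matrix proteins (Spp1 and Fn1), membrane proteins (Trem2 and Gpnmb), a cytosolic lipid carrier (Fabp5), a lectin (Lgals3) and tetraspanins (Cd63 and Cd9).

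The BLM library held 4714 barcodes with 22490782 unique molecular identifiers (UMIs, each a counted molecule) and the naive library 4062 barcodes with 18019004 UMIs. Of these, 4526 and 3925 cells passed the limits of 200 genes and 15% mitochondrial UMIs, and 22 cell indices occurred in both libraries. Cells were placed in 16 classes by markers. The 2 classes that matter most here are macrophages led by C1q genes (402 BLM and 80 naive cells), called C1q macrophages, and alveolar macrophages (396 BLM and 676 naive cells). The markers of each class led it in both libraries, with the C1q list at a summed 7101 UMIs per 1000000 UMIs of the class (CPM) in BLM and 11910 in naive C1q macrophages against 477 and 343 in alveolar macrophages. The list of alveolar macrophage markers stood at 3260 and 3407 CPM in C1q macrophages and at 19949 and 21741 in alveolar macrophages, and in BLM and naive C1q macrophages the neutrophil list stood at 270.1 and 901 CPM, that of classical monocytes at 1337 and 2864, that of cDC2 at 457 and 1746 and that of B cells at 25.5 and 129. The last 4 lists were lower in the BLM than in the naive C1q macrophages, and their part in the ratios below was not tested. Ptprc, which encodes CD45, was detected in both classes. A further 745 BLM and 390 naive cells met no gate, and 47 BLM and 4 naive cells lay between the gates of the macrophage classes.

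In clusters built without the 8 genes, the cells of both classes were spread in unlike shares in the 2 libraries. Of the BLM C1q macrophages 309 lay in cluster 5, which Mmp12, Retnla and C1qa led, and 56 in cluster 17, which Cd209f, Ccl8, Cd163 and Lyve1 led. Of the naive C1q macrophages 24 lay in cluster 5 and 55 in cluster 17. Alveolar macrophages lay mostly in cluster 6 in BLM (336 cells) and in cluster 3 in naive lung (635 cells). With 1 library per condition, treatment and library cannot be told apart and no difference has a replicate check. Every interval below is a 95% interval for counting error only, exact Poisson for a level, exact Clopper-Pearson for a share and exact conditional for a log2 ratio.

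The sequence before the start is shown for the secreted protein gene Spp1 and the membrane protein genes Gpnmb and Trem2. A link between these sequences and the levels was not tested. Each is the 250 bases upstream of the RefSeq start, 5′ to 3′ in the direction of the gene, on GRCm38.p6, with matches to 4 motifs in capitals. These were the E-box CACGTG, the AP-1 site TGANTCA, the core promoter letters TATAAA and the PU.1 core GAGGAAG, none of which overlapped another, searched on both strands. The windows are chr5:104434861-104435110 on the plus strand for the first Spp1 start, chr6:49036268-49036517 on the plus strand for Gpnmb and chr17:48346151-48346400 on the plus strand for Trem2.
Spp1: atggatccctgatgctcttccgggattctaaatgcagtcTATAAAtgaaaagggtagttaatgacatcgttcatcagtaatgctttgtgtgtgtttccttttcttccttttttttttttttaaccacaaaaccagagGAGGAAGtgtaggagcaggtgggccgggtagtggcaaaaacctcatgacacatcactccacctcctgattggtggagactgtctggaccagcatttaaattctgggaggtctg
Gpnmb: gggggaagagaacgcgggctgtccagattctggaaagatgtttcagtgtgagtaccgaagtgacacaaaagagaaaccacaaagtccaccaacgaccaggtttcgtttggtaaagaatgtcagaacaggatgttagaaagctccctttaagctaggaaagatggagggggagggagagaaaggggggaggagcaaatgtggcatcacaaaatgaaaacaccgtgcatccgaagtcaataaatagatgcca
Trem2: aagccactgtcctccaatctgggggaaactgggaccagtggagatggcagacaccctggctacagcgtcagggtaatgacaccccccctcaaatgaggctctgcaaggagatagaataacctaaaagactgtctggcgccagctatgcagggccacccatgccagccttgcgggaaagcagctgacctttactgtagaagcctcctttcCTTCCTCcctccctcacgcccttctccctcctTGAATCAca
The RefSeq table holds a further Spp1 window of 250 bases, chr5:104435942-104436191, which held no match and is not printed. The Spp1 window above held TATAAA 211 to 206 bases before the start and GAGGAAG 113 to 107 bases before it. The Trem2 window held CTTCCTC, the reverse complement of GAGGAAG, 41 to 35 bases before the start and TGAATCA 9 to 3 bases before it. No motif of the 4 was found in the Gpnmb window. Over 32851 RefSeq promoters, 12.4% held TATAAA, 10.6% GAGGAAG, 6.75% TGANTCA and 6.02% CACGTG in the same length, and each match is a description only.

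Spp1 encodes osteopontin, a secreted matrix protein that binds integrins and CD44, and lies at chr5:104435118-104441050 on the plus strand (GRCm38). In C1q macrophages it stood at 7166 CPM in BLM (30879 UMIs) and 18.7 CPM in naive lung (9 UMIs), a log2 ratio of 8.58 (7.65 to 9.71). In alveolar macrophages it stood at 5415 CPM in BLM and 248 CPM in naive lung, a log2 ratio of 4.45 (4.38 to 4.52). Spp1 was thus highest in alveolar macrophages in the naive lung and high in both macrophage classes after BLM. The log2 ratio of the C1q to the alveolar level was -3.73 in naive lung (-4.86 to -2.80) and 0.40 after BLM (0.38 to 0.43). Macrophages between the gates reached 7112 CPM in BLM. Together the C1q and alveolar classes held 42.7% and 39.9% of all Spp1 UMIs of the BLM library, and the ungated cells 9.91%.

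Fn1 encodes fibronectin, the matrix glycoprotein on which cells adhere, and lies at chr1:71585520-71653200 on the minus strand. It stood at 3783 CPM in BLM and 666 CPM in naive C1q macrophages (log2 ratio 2.51, 2.35 to 2.67), and at 3340.0 and 411 CPM in alveolar macrophages (3.02, 2.97 to 3.08). The naive C1q level rested on few cells, since 8 of the 80 cells held 97.8% of its UMIs and 1 cell held 116 of the 320. In naive lung the class with the highest Fn1 level was classical monocytes, at 1255 CPM against 2553 CPM in BLM (log2 ratio 1.02, 0.92 to 1.13). Conventional dendritic cells of type 2 (cDC2) stood at 277 CPM in naive lung and 1365 CPM in BLM. In cluster 5, which C1q macrophages shared, lay 12 of the 67 BLM and 4 of the 96 naive cDC2. Of the classical monocytes, 12 of 177 BLM cells lay in cluster 5, and 205 of 208 naive cells in cluster 8. The part of such cells in the cDC2 and monocyte levels was not tested. Cells without a gate held 26.4% of the Fn1 UMIs in BLM, at 3819 CPM. Of the 20 BLM cells with the most Fn1 per UMI, 9 were ungated, 7 C1q macrophages, 3 alveolar macrophages and 1 a classical monocyte.

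**Figure D1:**
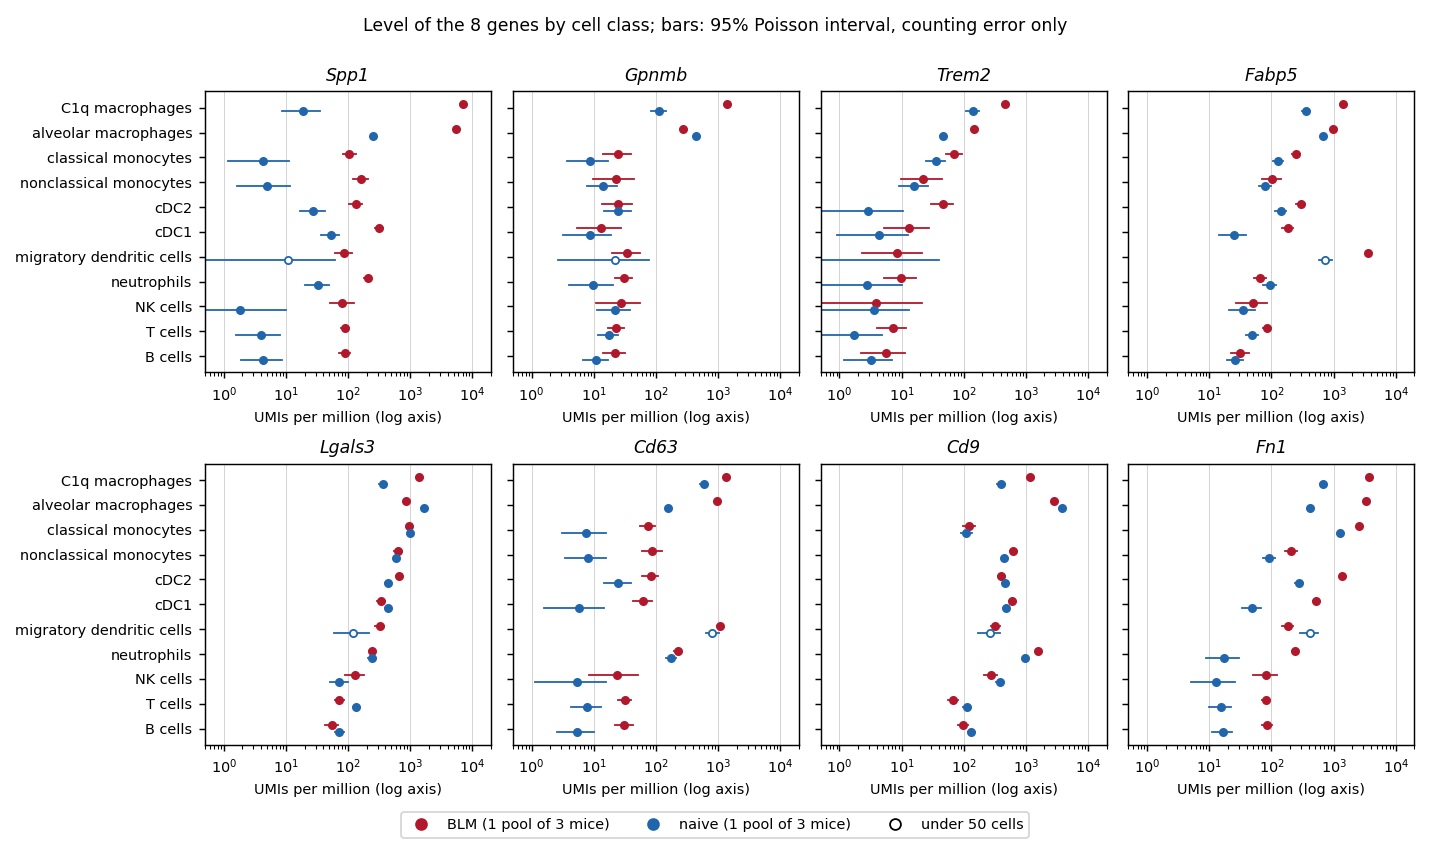
Level of each of the 8 genes (CPM, log axis) in 11 cell classes of the BLM (red) and naive (blue) library, each 1 pool of 3 mice. Points are levels, bars 95% Poisson intervals for counting error, and open points classes of under 50 cells. Bars are cut at the left edge, and Trem2 in naive migratory dendritic cells, at 0, is not drawn. The Spp1 panel shows both macrophage classes at 7166 and 5415 in BLM and every other class at 315 or below.

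Trem2 encodes a receptor for lipids and lipoproteins of myeloid cells that signals through the adaptor Tyrobp, and lies at chr17:48346401-48354147 on the plus strand. It stood at 458 CPM in BLM and 142 CPM in naive C1q macrophages, a log2 ratio of 1.69 (1.34 to 2.06). In alveolar macrophages it stood at 149.5 and 46.2 CPM, with a ratio of 1.69 (1.51 to 1.89). Trem2 thus differed between the libraries by like amounts in both classes and kept their order, with the C1q level above the alveolar level by 1.61 in BLM and 1.62 in naive lung on the log2 scale. Classical monocytes came next, at 71.0 and 35.9 CPM, and the naive value overlapped that of alveolar macrophages.

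Gpnmb encodes a transmembrane glycoprotein found on lysosomes and at the cell surface of macrophages, and lies at chr6:49036546-49070929 on the plus strand. It stood at 1384 CPM in BLM and 112 CPM in naive C1q macrophages, a log2 ratio of 3.62 (3.24 to 4.04). In alveolar macrophages the order was the opposite, with 269.9 CPM in BLM and 437 CPM in naive lung, a log2 ratio of -0.70 (-0.79 to -0.60). The classes thus changed places, with Gpnmb lower in C1q than in alveolar macrophages of the naive lung (log2 -1.96) and higher after BLM (2.36). Of the 54 naive C1q UMIs of Gpnmb, 44 came from 1 cell, which also held 101 of the 176 Fabp5 UMIs. Without that cell the C1q ratio was 6.01 for Gpnmb and 3.16 for Fabp5, and with stricter gates that of Gpnmb was 6.40. No other class of 50 or more cells exceeded 34.0 CPM.

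Fabp5 encodes a fatty acid binding protein that carries lipids through the cytosol, and lies at chr3:10012548-10016607 on the plus strand. It stood at 1435 CPM in BLM and 366 CPM in naive C1q macrophages (log2 ratio 1.97, 1.75 to 2.19), and at 964 and 667 CPM in alveolar macrophages (0.53, 0.47 to 0.59). The ratio was 3.36 with stricter gates and 0.82 within cluster 5. Among classes of 50 or more cells, Fabp5 was the only one of the 8 genes whose BLM level was highest outside macrophages. Migratory dendritic cells, which carry antigen to lymph nodes, stood at 3596 CPM (73 cells). The 14 naive cells of that class stood at 741 CPM.

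Lgals3 encodes galectin-3, a lectin that binds sugars on matrix and membrane proteins, and lies at chr14:47367751-47386160 on the plus strand. In C1q macrophages it stood at 1369 CPM in BLM and 366 CPM in naive lung, a log2 ratio of 1.90 (1.69 to 2.13). In alveolar macrophages it was lower in BLM, at 854 against 1682 CPM, a ratio of -0.98 (-1.03 to -0.93). Monocytes carried Lgals3 at levels that differed little between the libraries. Classical monocytes stood at 975 CPM in BLM and 1010.4 CPM in naive lung, with an interval of the log2 ratio from -0.20 to 0.09, and nonclassical monocytes at 639 and 596 CPM (-0.13 to 0.32).

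Cd63, a tetraspanin of late endosomes and lysosomes, lies at chr10:128900989-128912822 on the plus strand. It stood at 1362 CPM in BLM and 589 CPM in naive C1q macrophages (log2 ratio 1.21, 1.04 to 1.39), and at 951 and 159 CPM in alveolar macrophages (2.58, 2.49 to 2.67). Cd63, like Fn1, thus had the larger ratio in alveolar macrophages. Migratory dendritic cells, at 1066 CPM in BLM, stood above BLM alveolar macrophages in Cd63 with intervals that overlapped.

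Cd9, a tetraspanin of the plasma membrane, lies at chr6:125460266-125494791 on the minus strand. Its highest level in both libraries was that of alveolar macrophages, at 2896 CPM in BLM and 3783 CPM in naive lung (log2 ratio -0.39, -0.41 to -0.36). In C1q macrophages it stood at 1156 CPM in BLM and 395 CPM in naive lung (1.55, 1.34 to 1.76). The log2 ratio of the C1q to the alveolar level was -1.32 in BLM and -3.26 in naive lung. Neutrophils came next in BLM, at 1597 CPM against 985 CPM in naive lung (0.70, 0.57 to 0.82).

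In C1q macrophages all 8 genes were higher in BLM by over 2-fold and none was lower, and with classes taken from clusters or from a z score gate it was 7 of the 8, without Cd9 (0.69 and 0.98). Over all 9462 genes with 20 or more UMIs in the class, 9.25% were higher by over 2-fold and 11.9% lower, and the median log2 ratio was -0.08 against 1.94 for the 8 genes. In alveolar macrophages 4 of the 8 genes were higher by over 2-fold (Spp1, Fn1, Cd63 and Trem2) and none lower by that much, beside 4.98% higher and 10.1% lower of 10691 genes. Fabp5 was higher by less, and Gpnmb, Lgals3 and Cd9 were lower with intervals below 0. All 8 passed the minimum of 20 UMIs, Spp1 in C1q macrophages through its BLM UMIs alone. In order of the ratio in C1q macrophages Spp1 ranked 1, Gpnmb 12, Fn1 74 and Cd63, the lowest of the 8, 630 of 9462. Since the genes were chosen with this contrast known, nothing is read from these shares.

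**Figure D2:**
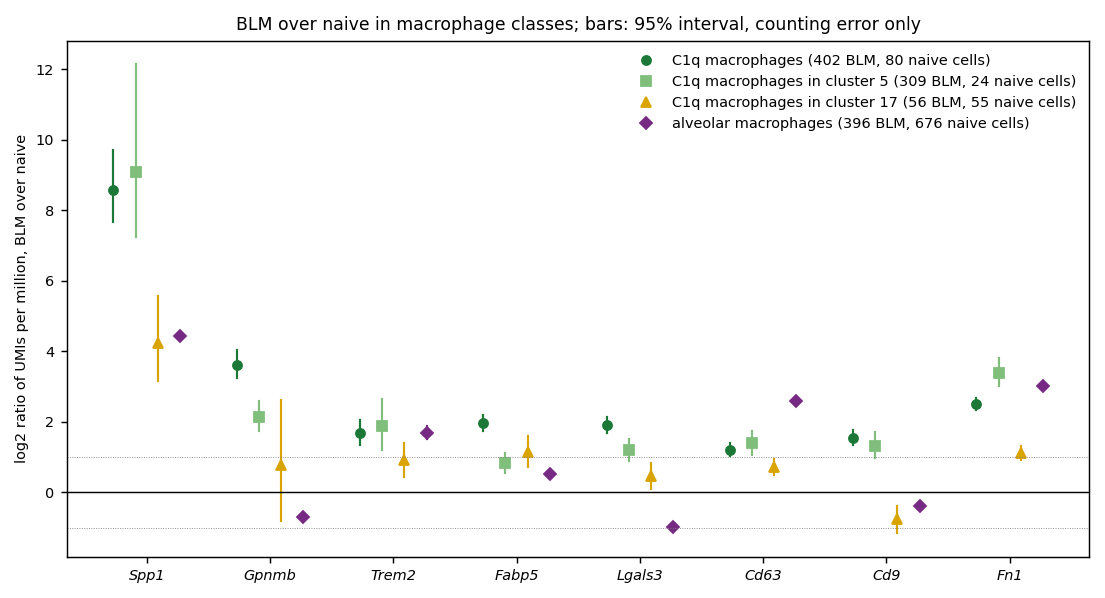
Log2 ratio of the level in BLM over naive lung for each of the 8 genes, in C1q macrophages, in their cells of cluster 5 and of cluster 17, and in alveolar macrophages. Bars are 95% intervals for counting error, and the dotted lines mark 2-fold. The Gpnmb, Lgals3 and Cd9 values lie above 0 in all C1q macrophages and below 0 in alveolar macrophages.

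Within C1q macrophages the ratios depended on the cluster. In cluster 5, Spp1 stood at 8315 CPM over the 309 BLM cells and 15.2 CPM over the 24 naive cells, the latter from 2 UMIs, and Gpnmb at 1645 and 373 CPM (log2 ratio 2.14, 1.74 to 2.58), with 44 of the 49 naive UMIs in 1 cell. Of the 8 genes 7 were higher by over 2-fold in cluster 5, all but Fabp5, beside 10.6% higher and 18.8% lower of 8558 genes with 20 or more UMIs there. Cluster 17 held like numbers of cells of both libraries, 56 and 55. There Spp1 stood at 383 CPM in BLM and 20.5 CPM in naive lung (4.22, 3.15 to 5.56), and Gpnmb at 24.9 and 14.7 CPM with an interval from -0.81 to 2.61. Cluster 17 showed 3 genes higher by over 2-fold, namely Spp1, Fabp5 (1.14) and Fn1 (1.10), beside 5.43% higher and 6.53% lower of 5465 genes. Cd9 was lower there in BLM, at 203 against 346 CPM (-0.77, -1.16 to -0.38). Within the BLM library the cells of cluster 5 were above those of cluster 17 for each of the 8 genes, by 6.04 for Gpnmb, 4.44 for Spp1 and 2.63 for Cd9 at the upper end and 0.50 for Cd63 at the lower end. The share of all genes higher in cluster 5 was not taken, and nothing is read from the count. Within the naive library the same comparison gave 4.67 for Gpnmb, 2.31 for Fabp5 and -0.96 for Fn1, and the interval for Spp1 spanned 0 (-3.74 to 1.96). Most of the Gpnmb and Fabp5 UMIs of naive cluster 5 came from 1 cell, and without it the intervals for Gpnmb (-0.57 to 3.67) and Fabp5 (-1.51 to 0.30) spanned 0, and Cd63 went from -0.18 to -1.05.

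Beyond macrophages, 10 classes held 50 or more cells in both libraries, the macrophage classes included. Spp1 and Fn1 were higher in BLM in all 10 with intervals above 0, Cd63 in 9, Fabp5 in 6, Trem2 in 5, Gpnmb and Cd9 in 4 and Lgals3 in 3. Cd9 was lower with an interval below 0 in 4 classes, Lgals3 in 3, and Gpnmb and Fabp5 in 1 each. The share of all genes with such intervals was not taken, and nothing is read from these counts. The classes with higher Spp1 included B cells, which are taken here as a class that lacks these genes. Free RNA in the cell suspension can give UMIs in such cells, and lymphocyte levels are therefore set beside the rest.

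B cells held 110 Spp1 UMIs in 538 BLM cells (88.2 CPM) and 8 in 715 naive cells (4.35 CPM). Their Fn1 level was 85.8 CPM in BLM and 16.3 CPM in naive lung, and their Cd63 level 31.3 and 5.44 CPM. T cells stood at 90.3 and 3.94 CPM of Spp1, and at 81.1 and 15.2 CPM of Fn1, and for both genes the interval of the T to B cell ratio spanned 0 in each library. B and T cells thus carried like low levels of Spp1 and Fn1, higher in BLM as in the macrophages. For Spp1 the B cell log2 ratio between libraries was 4.34, beside 4.45 in alveolar macrophages, and the part of free RNA in the ratios of other low classes was not tested. Fabp5 departed from this in T cells, at 85.4 CPM in BLM and 48.4 CPM in naive lung against 31.3 and 26.1 CPM in B cells. Lgals3 departed in naive T cells (136 against 72.9 CPM) and BLM NK cells (128 against 54.5 CPM), and Cd9 in NK cells, at 272 CPM in BLM and 387 CPM in naive lung against 97.1 and 133 CPM. Cd9 was below the B cell level in BLM T cells (67.6 CPM) and in naive group 2 innate lymphoid cells (81.0 CPM), with intervals below 0. In naive T cells its interval spanned 0. Whether B cells lack Cd9 was not tested.

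Against that level the macrophage values were large. The B cell level was 1.23% of the Spp1 level in BLM C1q macrophages and 1.63% in BLM alveolar macrophages, and at most 8.39% of the level of any of the 8 genes in either BLM class. In naive C1q macrophages it was 23.2% for Spp1, 33.6% for Cd9 and 19.9% for Lgals3, and these naive levels were the nearest to background. With the B cell level subtracted, the C1q ratio of Cd9 was 2.01 and that of Lgals3 2.16. These percentages and ratios take free RNA as the same share of UMIs in B cells and macrophages, which was not tested. Median UMIs per cell were 1776 in BLM and 1989 in naive B cells, against 9863 and 5383 in C1q macrophages. All 8 genes stood above B cells in both macrophage classes of both libraries, with intervals above 0. Outside macrophages this count was highest in BLM nonclassical monocytes and in cDC2 of both libraries, at 7 each. Spp1 stood at 160.5 CPM in BLM nonclassical monocytes and at 132 and 27.8 CPM in BLM and naive cDC2. The count was 6 in BLM cDC1 and BLM neutrophils, with Spp1 at 315 and 206 CPM. In BLM classical monocytes and migratory dendritic cells it was 5, without Spp1, which stood at 106 and 85.0 CPM. The share of all genes that stood above B cells in these classes was not taken, and nothing is read from the counts.

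**Figure D3:**
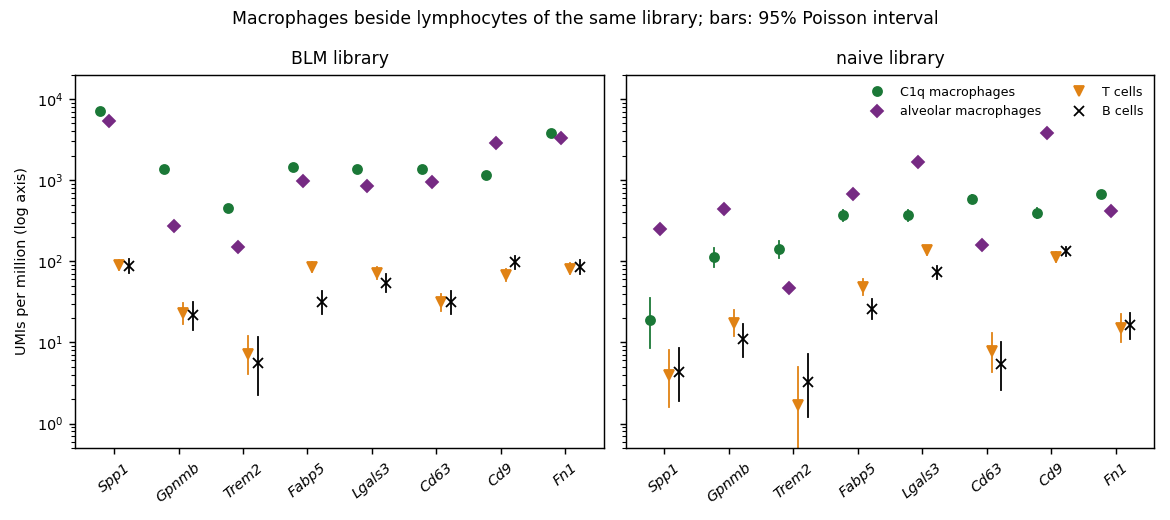
Level of the 8 genes (CPM, log axis) in C1q macrophages, alveolar macrophages, T cells and B cells of the BLM library (left) and the naive library (right), with 95% Poisson intervals. In BLM every macrophage level lies above that of B and T cells, and in naive lung the Cd9 level of C1q macrophages (395) is the closest to that of B cells (133).

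The share of cells with a UMI moved with the levels. In C1q macrophages 83.8% of BLM and 6.25% of naive cells had an Spp1 UMI, beside 17.1% and 1.12% of B cells. Median depths were 9863 and 5383 UMIs in C1q macrophages and 1776 and 1989 in B cells. With each cell thinned to 1000 UMIs the Spp1 shares were 54.7% and 1.76% in C1q macrophages and 7.89% and 0.469% in B cells, with 11 BLM and 0 naive C1q macrophages and 16 and 6 B cells left out as shallower. Fn1 went from 9.07% of naive to 74.6% of BLM C1q macrophages on the same thinned scale, and Cd63 from 40.6% to 61.4%. In alveolar macrophages, with 11 BLM and 13 naive cells left out, the thinned share of Gpnmb was lower in BLM (16.3% against 28.8%), as was that of Lgals3 (53.7% against 77.9%), whereas Spp1 had 77.3% against 17.2%. Without thinning these were 50% and 72.6% for Gpnmb, 96.7% and 98.5% for Lgals3 and 98.5% and 60.7% for Spp1.

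Within BLM C1q macrophages the 8 genes were spread over the cells in different ways. Gpnmb was the most uneven, with 73.6% of its UMIs in the 41 highest of the 402 cells, up to 518 in 1 cell, and a median of 0. Spp1 followed, with 68.2% in 41 cells and a median of 7.95 UMIs per 10000. Cd63 and Fn1 were the most even, with 35.1% and 34.8%. In BLM alveolar macrophages Spp1 was less uneven, with 49.4% in 40 of 396 cells and a median of 26.5 UMIs per 10000. Cells with over 100 Spp1 UMIs per 10000 numbered 71 of 402 C1q macrophages (17.7%, 14.1 to 21.7) and 58 of 396 alveolar macrophages (14.6%, 11.3 to 18.5) in BLM. No naive cell reached this, of 80 and 676.

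**Figure D4:**
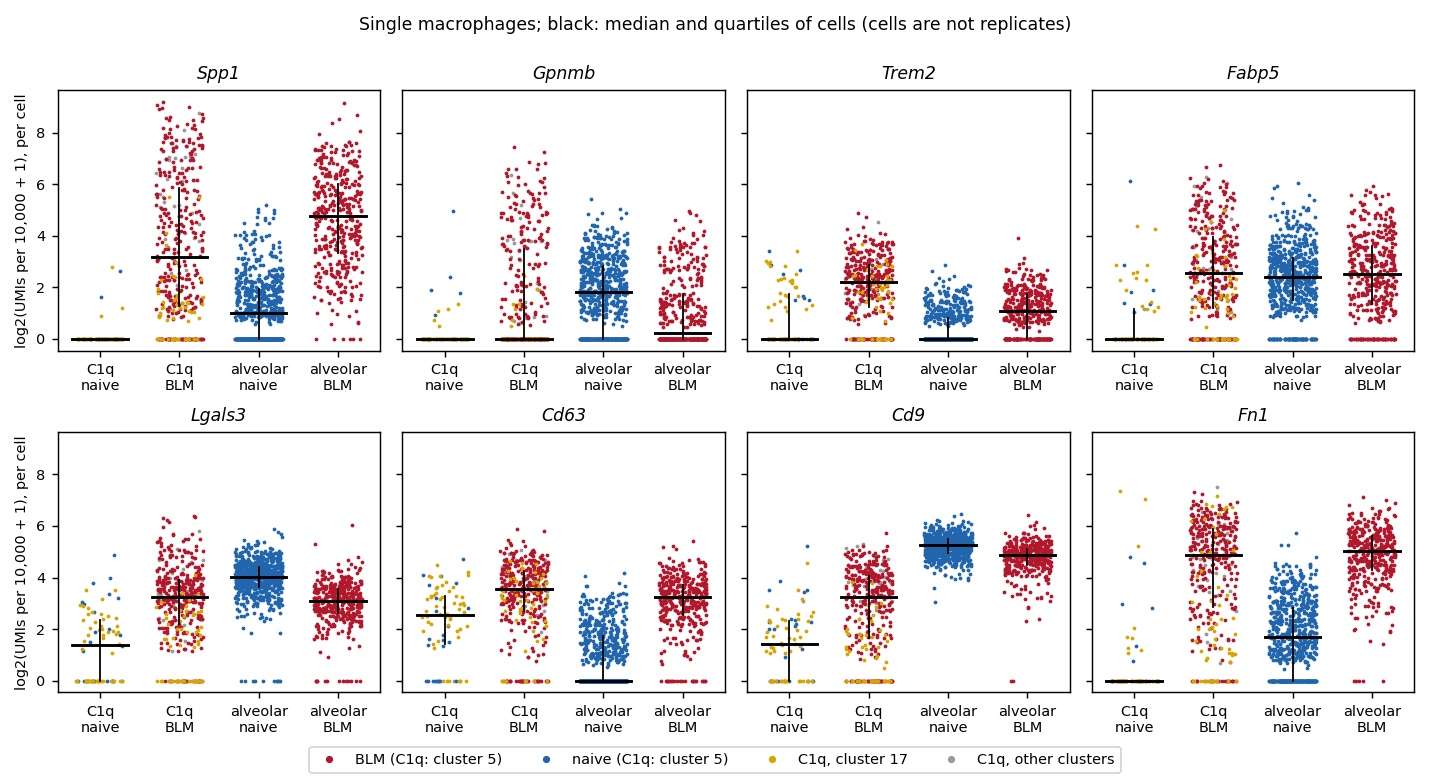
Level of each of the 8 genes in single macrophages, as log2(UMIs per 10000 + 1), for naive and BLM C1q and alveolar macrophages, with black bars for the median and quartiles of cells. Cells of 1 library are not replicates. In the Gpnmb panel the BLM C1q median is 0 beside cells far above it, and C1q cells of cluster 17 (yellow) lie low in the Spp1 and Gpnmb panels.

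All 8 genes were detected together in 150 of 402 BLM C1q macrophages (37.3%) and 140 of 396 BLM alveolar macrophages (35.4%), against 1 of 80 and 54 of 676 naive cells. At 1000 UMIs per cell 19 of 391 BLM C1q macrophages (4.86%) and 2 of 385 BLM alveolar macrophages (0.519%) still showed all 8. In cluster 5 131 of 309 BLM cells had all 8, and in cluster 17 1 of 56. The 8 genes together made up 1.81% of the UMIs of BLM C1q macrophages and 0.266% of naive ones, and 1.48% and 0.743% in alveolar macrophages.

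Across the 402 BLM C1q macrophages, which share a library and differ in depth, the Pearson correlation of log levels over the 28 pairs of genes had a median of 0.41 and was above 0 for 26 pairs. It was highest for Spp1 with Cd9 (0.63) and with Gpnmb (0.61), and for Gpnmb with Fabp5 (0.60). Fn1 ranged from -0.04 with Gpnmb and 0.24 with Spp1 to 0.37 with Cd9. Within the 309 cells of cluster 5 alone Spp1 and Gpnmb still had 0.60 and Gpnmb and Fn1 -0.18. In the 396 BLM alveolar macrophages the median was 0.15, Spp1 and Gpnmb had -0.04, and Gpnmb and Fn1 had -0.46. The genes with depth itself had 0.20 to 0.32 in BLM C1q and 0.06 to 0.26 in BLM alveolar macrophages. These values describe 1 library.

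**Figure D5:**
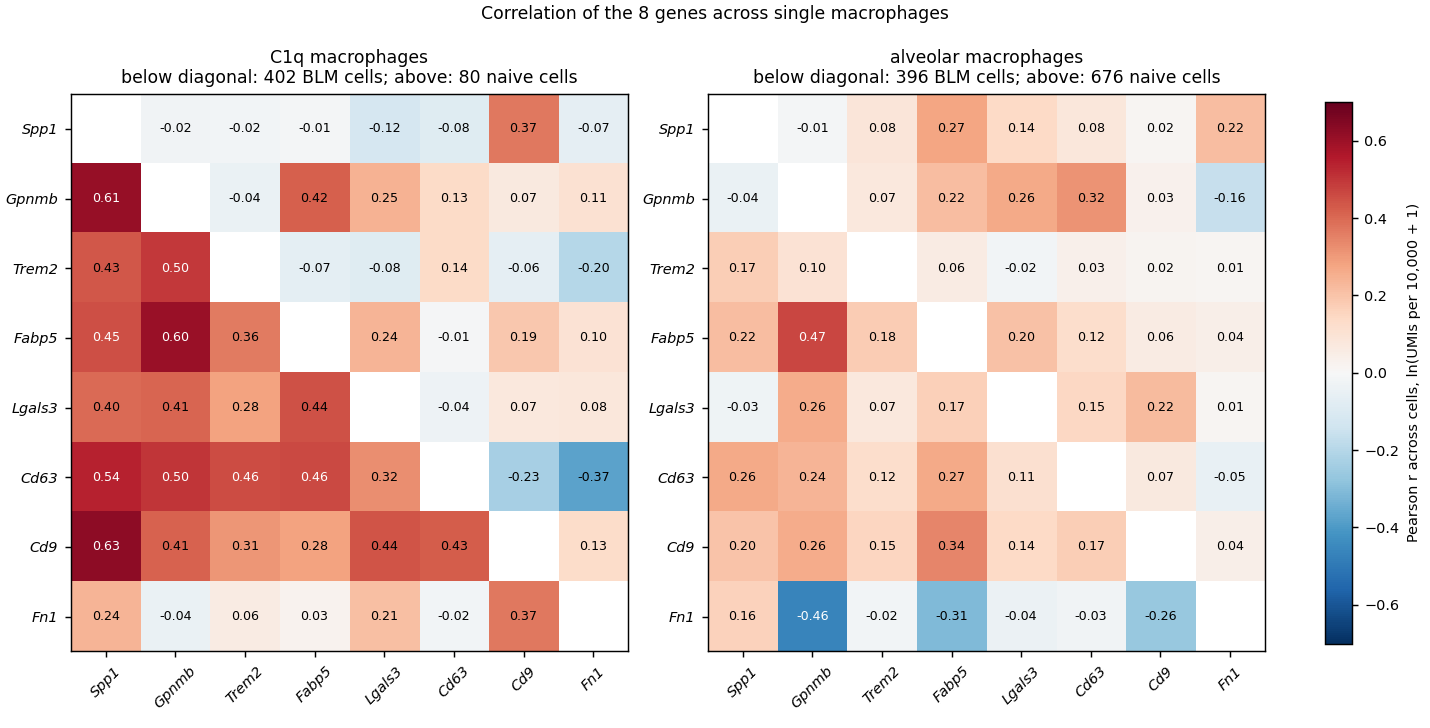
Pearson correlation of each pair of the 8 genes across single cells, on ln(UMIs per 10000 + 1), in C1q macrophages (left) and alveolar macrophages (right), with BLM cells below and naive cells above the diagonal. The BLM C1q values are mostly above 0.2, and the Fn1 row of BLM alveolar macrophages reaches -0.46 with Gpnmb.

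Other genes of the same pathways were taken from 8 lists, 86 genes in all. In C1q macrophages 83 had 20 or more UMIs, of which 18 were higher and 14 lower in BLM by over 2-fold, with a median log2 ratio of 0.25 beside -0.08 over all genes. Over all genes of the class the shares were the 9.25% and 11.9% given above. In alveolar macrophages 16 of 82 were higher and 8 lower, beside 4.98% and 10.1% of all genes. Lysosome and lipid genes held 8 higher and 1 lower of 16 in C1q macrophages, among them the cathepsins Ctsd (3934 against 595 CPM, log2 2.72) and Ctsk (312 against 39.5 CPM, 2.98), with the membrane protein Lamp2 at -0.17 and the scavenger receptor Cd36 lower (421 against 1136 CPM, -1.43). Matrix remodelling genes and growth factors held 7 higher and 2 lower of 18 in the same class. The arginase Arg1 stood at 1030.4 against 6.24 CPM (7.37, interval 5.82 to 9.64, from 3 naive UMIs) and the elastase Mmp12 at 815 against 121 CPM (2.75). Mmp9, a gelatinase of neutrophils among other cells, was lower (15.3 against 296 CPM, -4.27), in a class whose naive cells also held more of the neutrophil list, and Pdgfb was lower by less (-1.40). The part of those neutrophil transcripts in the Mmp9 value was not tested. In alveolar macrophages lysosome and lipid genes held 1 higher (Ctsl) and 3 lower (Plin2, Abcg1 and Cd36) of 16, with Ctsd at 0.71 and Cd36 at -3.33. Matrix remodelling genes and growth factors held 10 higher and 1 lower (Mmp9) of 17 there. The alveolar log2 ratios of Arg1 (10.71, interval 9.16 to 12.98, from 3 naive UMIs) and Mmp12 (5.87, from 13 naive UMIs) were above those in C1q macrophages.

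Partners and relatives of the 8 genes made up the other lists, given first for C1q macrophages. Over all genes of that class 9.25% were higher and 11.9% lower by over 2-fold. TREM2 signalling genes held none of 8 past 2-fold, with the adaptor Tyrobp at 2973 against 1713 CPM (0.80), Apoe, a lipoprotein that TREM2 binds, at 5557 against 3811 CPM (0.54) and the kinase Syk at -0.60. Receptors for osteopontin or fibronectin held none higher and 3 lower of 8, with Cd44 at 651 against 568 CPM (0.20), the integrin Itga9 at -2.36 and the syndecan Sdc4 at -1.59. The tetraspanins apart from Cd63 and Cd9 held none higher and 4 lower of 11, with Cd81 at -1.73 and Tspan3 at -1.28. Fatty acid binding proteins held 1 higher of 3, Fabp4 (1.29). Fabp3 was at 46 UMIs in BLM and none in naive lung, which with the naive count set to 3 UMIs is 1.71-fold higher. The lower end of its log2 interval was 0.42. Galectins held none of 4 past 2-fold, with Lgals1 at 0.85, Lgals9 at 0.55 and Lgals8 at -0.45. Transcription factors held 2 higher and 4 lower of 15, with Tfec, a relative of the lysosome regulator TFEB, at 1.86, Bhlhe40 at 0.87, and the AP-1 and stress factors Jun and Atf3 at -2.13 and -1.82. In alveolar macrophages TREM2 signalling genes held 1 higher of 8, Apoe (1.66), and receptors none past 2-fold of 7. Tetraspanins held 2 higher and none lower of 11, with Tspan3 at 1.92. Fatty acid binding proteins held 1 higher and 1 lower of 3, with Fabp4 at -0.67. Galectins held 1 lower of 5, and transcription factors 1 higher and 2 lower of 15. Over all genes there the shares were 4.98% and 10.1%.

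Over the 22 class and library units with 50 or more cells, the genes most like the mean of the 8, by Pearson correlation of log2(CPM + 10), were Cstb (0.94), Slc39a1 (0.90), Lipa (0.89), Rab1a (0.89), Ftl1 (0.89) and Clmp (0.89). The 8 genes themselves had 0.70 (Cd9) to 0.88 (Trem2) with that mean, and between pairs 0.37 (Cd9 and Fn1) to 0.86 (Trem2 and Fn1). The units share 2 libraries and differ in depth. Cstb, which encodes the cathepsin inhibitor cystatin B, stood at 990.0 and 537 CPM in BLM and naive C1q macrophages and at 875 and 598 CPM in alveolar macrophages.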

How the data were processed

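Single-cell RNA-seq was made from lung CD45+ cells with the BD Rhapsody whole transcriptome kit. The deposited values are UMI counts per cell and gene, corrected for sequencing errors of the UMIs (RSEC). The authors made them with the BD Rhapsody analysis pipeline, version 1.8, on GRCm38 with GENCODE M19. These details follow the headers of the deposited counts and the submitters' processing notes. A gene not listed in a library was taken as 0.

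The 8 genes, the gene lists and the tests were chosen with earlier results of these data known. Cells were kept with 200 genes or more and at most 15% mitochondrial UMIs. Each cell went to the class with the highest mean scaled square root of its markers (score at least 0.15, lead at least 0.05, at least 3 markers, markers of another lineage at most 0.6 of the score). This score was chosen after cells had been looked at: 3 kinds were tried, and the levels of the 8 genes under the first, a mean z score, had been seen. UMIs were summed per class and library and given per 1000000 UMIs (CPM). Clusters (Leiden, resolution 1) were built without the 8 genes and the listed genes. Doublets were not removed. Scrublet's own threshold marked 0.199% of BLM and 1.38% of naive cells, so the highest 3% of scores were left out as an alternative.

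No test between groups was possible with 1 library each. Of each list the genes with the highest and lowest C1q ratio were named, by the end of the interval nearer 0, and the 6 genes most like the mean of the 8. The log2 ratio was tested on simulated data. Promoter sequences come from RefSeq (GRCm38.p6); Fabp5 and Fn1 had no entry in the table used here. Gene coordinates follow a GENCODE annotation of GRCm38. Python 3.11.15, numpy 2.4.6, scipy 1.17.1, scanpy 1.11.5 and leidenalg 0.10.2 were used. Intervals and floors cover counting error only.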

Additional observations from a re-analysis of the deposited data

Results flagged for a closer look

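Of the 8 genes, 3 differed in direction between the macrophage classes, BLM over naive, and this difference between classes was not tested. The share of all genes that differed in direction was not taken, and nothing is read from the count. Gpnmb had a log2 ratio of 3.62 in C1q macrophages and -0.70 in alveolar macrophages. Lgals3 had 1.90 and -0.98. Cd9 had 1.55 and -0.39. Within cluster 17, where both libraries had like numbers of C1q macrophages, Lgals3 had 0.46 (0.08 to 0.84), Gpnmb an interval that spanned 0, and Cd9 -0.77.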

How the results depend on the processing

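In C1q macrophages of cluster 17 alone, a choice made after seeing the data, 3 of the 8 genes in place of 8 were higher in BLM by over 2-fold, 1 in place of 0 was lower, and Cd9 turned from 1.55 to -0.77 (log2). It was 7 of the 8 with classes by clusters, with the z score gate (both without Cd9) and in cluster 5 alone (without Fabp5). The share of BLM cells with all 8 genes was 4.86% in place of 37.3% in C1q macrophages and 0.519% in place of 35.4% in alveolar macrophages when cells were thinned to 1000 UMIs. Over cell limits, doublet scores, clusters, stricter gates, scaling, background, a z score gate, cycling cells and the naive cell of most Gpnmb UMIs (the last 3 chosen after seeing the data), the C1q ratios ranged from 7.62 to 9.09 for Spp1, from 2.84 to 6.40 for Gpnmb, from 1.81 to 3.43 for Fabp5 and from 0.69 to 2.01 for Cd9, and the alveolar ratios from -0.78 to -0.52 for Gpnmb, -1.01 to -0.97 for Lgals3 and -0.45 to -0.33 for Cd9. Of 184 ratios under an alternative, 127 stayed within the interval of the reported value. A further 56 lay above or below that interval with the sign kept, and 1, that of Cd9, changed sign. The cause was not tested. No paired analysis was possible because each condition has 1 library, and no replicate could be left out. The naive C1q levels rest on 80 cells, with 9 Spp1 and 54 Gpnmb UMIs, 44 of the latter in 1 cell.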
